A study of Mus musculus with 9 samples.

Results

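The genes described here are the cytochrome P450 (Cyp) genes of whole mouse left lungs before and after lung transplantation. They are the protein-coding genes whose symbol has the form of a P450 name (Cyp, a family number, a letter and a gene number), with the club cell gene Cyp2f2 left out by that rule. The rule found 60 genes among 23944 genes with a read. It used gene names only, and no measured value.

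RNA was sequenced from 9 adult wild-type left lungs, 3 in each of 3 groups. Shock grafts came from C57BL/6 donors held for 4 h in hypovolemic shock, at an arterial pressure that averaged 15 ± 5 mmHg, and allowed 20 h of recovery. Their lungs were then stored for 24 h at 0 °C, transplanted into Balb/C recipients and reperfused for 2 h. Cold-ischemia grafts had the same storage, strain pair and reperfusion without donor shock. Naive lungs were C57BL/6 lungs with no transplantation. All 6 grafts were therefore allografts that could hold blood cells of the recipient. The replicate numbers do not name animals, and p-values measure the spread between these samples only. Total counts were 18913487 to 34986276 reads per library.

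The grouping of 2 libraries is disputed. The library titled shock replicate 3 stands among the cold-ischemia libraries in the authors' deposited tables, and the library titled cold-ischemia replicate 2 stands among the shock libraries there. Libraries are grouped by title below. The 6 grafts against the 3 naive lungs are the main comparison, since it holds the same libraries under either grouping, although the fit takes 1 mean per graft group and its calls can still shift (given below). The naive samples' labels cite a record of another series and the grafts' labels do not, so a difference in handling and the difference between grafts and naive lungs cannot be told apart.

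Cytochrome P450 enzymes are heme proteins that insert an atom of oxygen into their substrate. Most sit in the endoplasmic reticulum and take electrons from P450 oxidoreductase (Por), and a few sit in mitochondria and take them through ferredoxin reductase (Fdxr). Families 1 to 3 mainly oxidise foreign compounds, family 4 hydroxylates fatty acids and eicosanoids, and the remaining families handle steroids, bile acids, vitamin D and retinoic acid. In mouse lung the best known P450 enzymes belong to club cells and alveolar type 2 cells, where they activate inhaled toxicants.

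Cyp1a1 and Cyp1b1 are textbook targets of the aryl hydrocarbon receptor (Ahr), a ligand-activated factor that binds DNA at elements with the core GCGTG. Their promoters are shown because these genes gave different values in the grafts, described below. Each sequence is the 250 bases before the RefSeq start on GRCm38.p6, which is mm10, in the direction of transcription, with the core on either strand in capitals. That of Cyp1a1 is chr9:57697363-57697612 on the plus strand, and that of Cyp1b1 is chr17:79715062-79715311 on the minus strand.
Cyp1a1: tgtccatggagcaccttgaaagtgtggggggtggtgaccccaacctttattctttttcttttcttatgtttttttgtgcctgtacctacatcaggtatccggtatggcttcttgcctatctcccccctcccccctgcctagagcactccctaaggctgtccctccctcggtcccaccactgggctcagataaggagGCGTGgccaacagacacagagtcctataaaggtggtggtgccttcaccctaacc
Cyp1b1: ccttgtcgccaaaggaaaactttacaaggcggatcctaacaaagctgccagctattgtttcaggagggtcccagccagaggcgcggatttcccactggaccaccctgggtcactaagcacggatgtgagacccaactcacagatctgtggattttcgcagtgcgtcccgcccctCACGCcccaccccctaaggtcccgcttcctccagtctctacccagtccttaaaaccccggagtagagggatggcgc
Each held 1 core, which began 54 bases before the start of Cyp1a1 and 76 bases before the start of Cyp1b1, where it lies on the other strand and reads CACGC. Of the 60 genes, 48 were in the RefSeq table and 10 of them (20.8%) held the core, against 8338 of 27025 genes in the table (30.9%). Among the genes that changed in the grafts, 3 of 9 in the table (33.3%) held it, which is close to the share of all genes. A match is a string of letters and not a measured binding site.

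Lung P450 RNA was dominated by a pair of genes. Cyp4b1, which activates furans and other small toxicants in mouse lung, averaged 301 FPKM over the 9 libraries. Cyp2b10, an enzyme of foreign compounds and textbook target of the nuclear receptor Nr1i3, averaged 210 FPKM. FPKM, reads scaled by gene length and library total as the authors deposited it, is used here to set genes side by side, and these genes made up 69.8% to 79.0% of the summed FPKM of the 60 genes in the grafts and 69.4% to 72.9% in naive lungs. Next came Cyp2s1 with 28.3 FPKM, Cyp2a5 with 23.1 FPKM and Cyp4v3 with 17.0 FPKM. The lowest tested gene was Cyp11a1 with 0.134 FPKM.

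At the other end, 29 of the 60 genes did not pass the filter on low counts and were not tested. The highest of them had 51 reads over all 9 libraries together, 24 of them had 10 reads or fewer, and none exceeded 0.572 CPM (counts scaled to the TMM-adjusted library total) in any library. They include the main P450 enzymes of liver, Cyp1a2, Cyp3a11, Cyp2c29 and Cyp4a10, and the vitamin D, retinoic acid and steroid enzymes Cyp24a1, Cyp26a1, Cyp26c1 and Cyp17a1. The others were Cyp2a4, Cyp2a12, Cyp2a22, Cyp2b9, Cyp2b13, Cyp2b19, Cyp2c67, Cyp2c70, Cyp2d9, Cyp2d10, Cyp2d11, Cyp2d26, Cyp2g1, Cyp3a57, Cyp46a1, Cyp4a29, Cyp4a31, Cyp4f14, Cyp4f37, Cyp4f40 and Cyp4x1. Liver marker genes were also near 0, with a summed level of 1.13 to 3.13 CPM in grafts and 2.15 to 2.80 CPM in naive lungs, whereas alveolar type 2 markers summed to 24006 to 34100 CPM in grafts and 30400.2 to 33434 CPM in naive lungs.

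**Figure D1:**
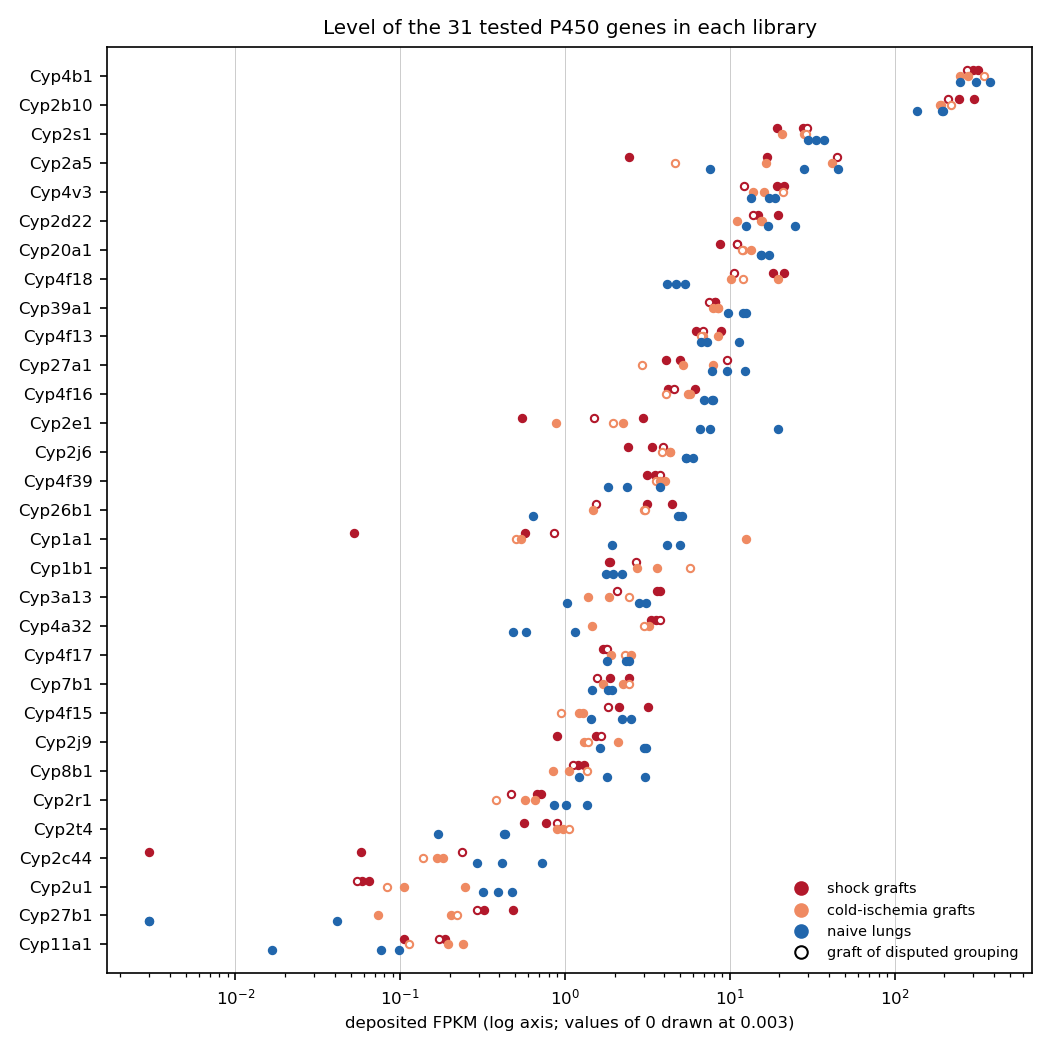
Deposited FPKM on a log axis of the 31 tested P450 genes in each of the 9 libraries, ordered by mean level, with values of 0 drawn at the left edge. Cyp4b1 and Cyp2b10 stand apart at the top with means of 301 and 210 FPKM, and the 3 groups overlap for most genes.

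In the grafts, 8 of the 31 tested P450 genes rose and 2 fell against naive lungs. The genes that rose were Cyp27b1, Cyp4a32, Cyp4f18, Cyp11a1, Cyp2t4, Cyp1b1, Cyp4f39 and Cyp2b10, and those that fell were Cyp2e1 and Cyp2u1. The share that changed was 32.3%, against 41.8% of the 15834 genes tested (22.1% higher and 19.7% lower), which is not above the share of genes in general. Their median log2 fold change was 0.02, against -0.05 over all genes tested. Calls are at an adjusted p under 0.05 in edgeR's quasi-likelihood test on the counts, two-sided, with Benjamini-Hochberg adjustment over all genes. With upper-quartile scaling in place of TMM, which moved the median of all genes to -0.25, the split was 7 higher and 7 lower, beside 2689 higher and 5029 lower of all 15834 genes. With the grouping of the deposited tables it was 10 higher and 3 lower (3744 and 3600 of all genes), with Cyp4v3 and Cyp7b1 added to the genes that rose and Cyp2c44 to those that fell.

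Without regard to any test, the CPM values of all 6 grafts lay above all 3 naive lungs for 9 of the 31 genes and below them for 3, together with 40.9% of all tested genes in either direction (20.9% above and 20% below). These 12 genes are the 10 that changed plus Cyp7b1 (log2 fold change 0.56, adjusted p = 0.072) and Cyp2c44 (-1.55, adjusted p = 0.065). The separation depends in part on the TMM scaling. In FPKM, which lacks it, grafts and naive lungs overlapped for Cyp2b10, Cyp1b1, Cyp4f39 and Cyp7b1. All grafts also lay below all naive lungs in FPKM for Cyp2s1, Cyp20a1, Cyp39a1, Cyp4f16, Cyp2j6 and Cyp2r1. Levels of single genes are given below in CPM, for shock replicates 1 to 3, then cold-ischemia replicates 1 to 3, then naive replicates 1 to 3. Fold changes are on the log2 scale with their standard error, for grafts over naive lungs. This error was derived as the absolute log2 fold change divided by the square root of the F statistic of the edgeR test.

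**Figure D2:**
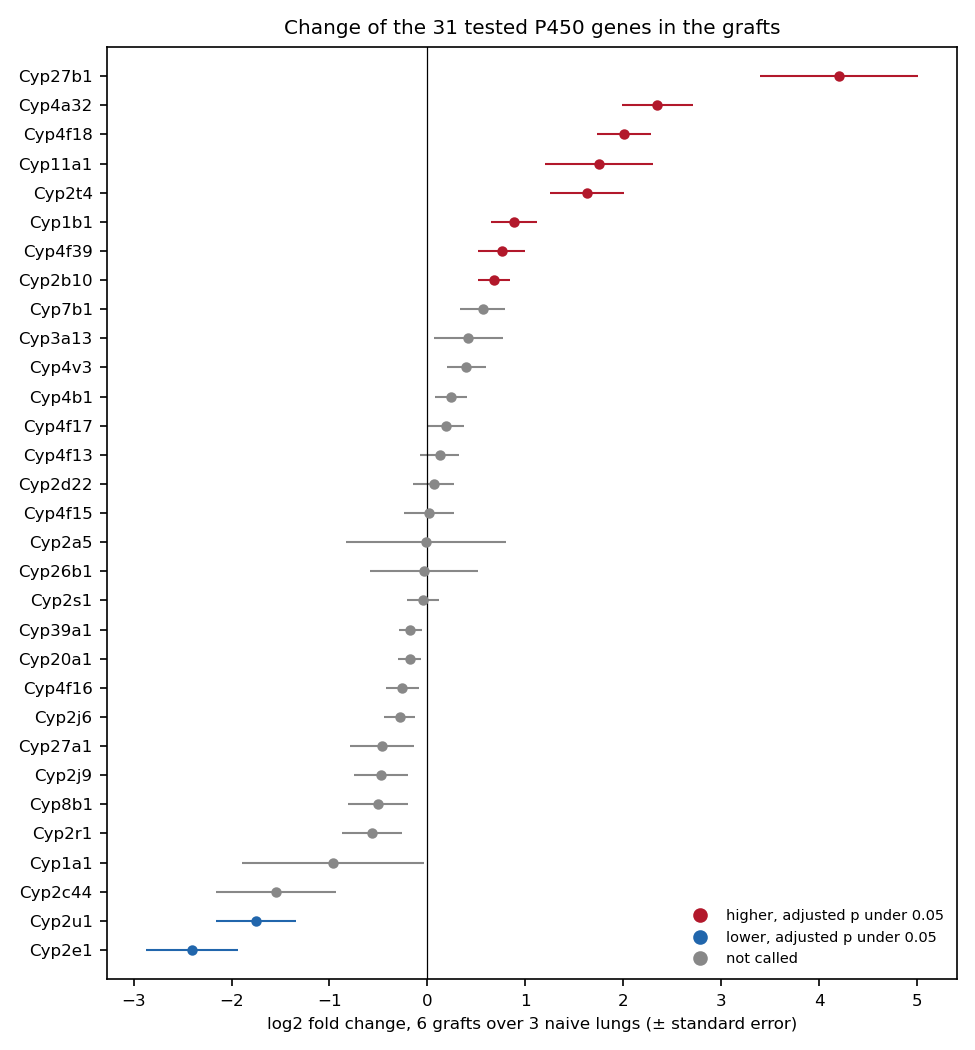
Log2 fold change of the 31 tested P450 genes, 6 grafts over 3 naive lungs, with bars of 1 standard error derived from the edgeR test statistic. Red genes were higher and blue genes lower at an adjusted p under 0.05, and the changes run between 4.20 for Cyp27b1 and -2.40 for Cyp2e1.

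Among enzymes of foreign compounds in families 2 and 3, 6 of 22 genes were tested, of which 2 rose and 1 fell. Of all genes tested, 22.1% rose and 19.7% fell. Cyp2b10 had 525, 638 and 430.5 CPM in shock grafts, 397, 446 and 380.1 CPM in cold-ischemia grafts, and 314, 324 and 233 CPM in naive lungs. Every graft lay above every naive lung in CPM but not in FPKM, and the change was 0.68 ± 0.16 (adjusted p = 0.0071). Nr1i3, the receptor known for driving Cyp2b10 in liver, was near 0, with 33 reads over all 9 libraries, and was not tested.

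Cyp2t4 had 1.00, 1.35 and 1.54 CPM in shock grafts, 1.72, 1.80 and 1.48 CPM in cold-ischemia grafts, and 0.229, 0.588 and 0.607 CPM in naive lungs. All grafts were above all naive lungs at this low level, and the gene rose by 1.63 ± 0.38 (adjusted p = 0.0055). Its exons overlap those of Egln2 on the opposite strand by 11 bases.

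Cyp2e1, the ethanol-oxidising P450 enzyme, fell by 2.40 ± 0.47 on the log2 scale (adjusted p = 0.0022). It had 6.03, 1.10 and 2.94 CPM in shock grafts, 1.77, 3.77 and 4.25 CPM in cold-ischemia grafts, and 10.2, 30.5 and 12.2 CPM in naive lungs. The highest graft was below the lowest naive lung, and naive replicate 2 was the highest of all libraries. Without that library the log2 fold change was -1.76 (adjusted p = 0.0197).

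Markers of fat cells were, like Cyp2e1, lower in the grafts than in the naive lungs. Of the 8 tested adipocyte markers 7 fell, beside 19.7% lower of all genes tested. Their summed level was 43.7 to 69.8 CPM in grafts and 72.4 to 339.7 CPM in naive lungs, where replicate 2 was again highest and replicate 1 lowest. Within the grafts the order was not the same. Shock replicate 1 was highest in both, but shock replicate 2, lowest in Cyp2e1, had a marker sum of 61.4 CPM. Adipoq, the defining fat-cell hormone, was at 0 to 1.38 CPM in grafts and at 1.12, 11.6 and 5.29 CPM in the naive lungs. The part of fat cells in the Cyp2e1 result was not tested. In RNA of whole lungs, fewer cells of a type and less RNA per cell cannot be told apart.

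Cyp2a5, which oxidises coumarin and nicotine, varied more between libraries than between groups. It had 5.44, 37.2 and 96.0 CPM in shock grafts, 92.7, 9.88 and 34.8 CPM in cold-ischemia grafts, and 48.1, 77.8 and 13.6 CPM in naive lungs. The groups overlapped fully, and the log2 fold change was -0.01 ± 0.82 (adjusted p = 0.99), with a sign that turned under several alternatives. Of its transcript, 14.4% of the stretches of 100 bases also occur in Cyp2a4 or in the pseudogene Cyp2a21-ps, so its reads there may be shared with these copies. Cyp2a4 had 15 reads over all 9 libraries, against 9978 for Cyp2a5.

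The libraries low in Cyp2a5 were low in an airway gene. Bpifa1, a secretory protein of upper airways, was lowest in the same 2 grafts, shock replicate 1 with 2.22 CPM and cold-ischemia replicate 2 with 3.28 CPM, against 8.13 to 419 CPM in the other grafts and 14.9 to 111 CPM in naive lungs. Summed club cell markers were also lowest in these grafts, with 16017 and 13985 CPM, against 22962 to 28722 CPM in the other grafts and 18589.5 to 30393 CPM in naive lungs. Of the 10 tested club cell markers, 0 were called between grafts and naive lungs by edgeR, against 41.8% of all genes tested. Among these markers 1, Chad, had an unadjusted p under 0.05, beside 7938 of all 15834 genes. The part of club cells in the Cyp2a5 values was not tested. The remaining tested genes of these families, Cyp3a13 (0.42 ± 0.35) and Cyp2d22 (0.06 ± 0.21), were not called.

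**Figure D3:**
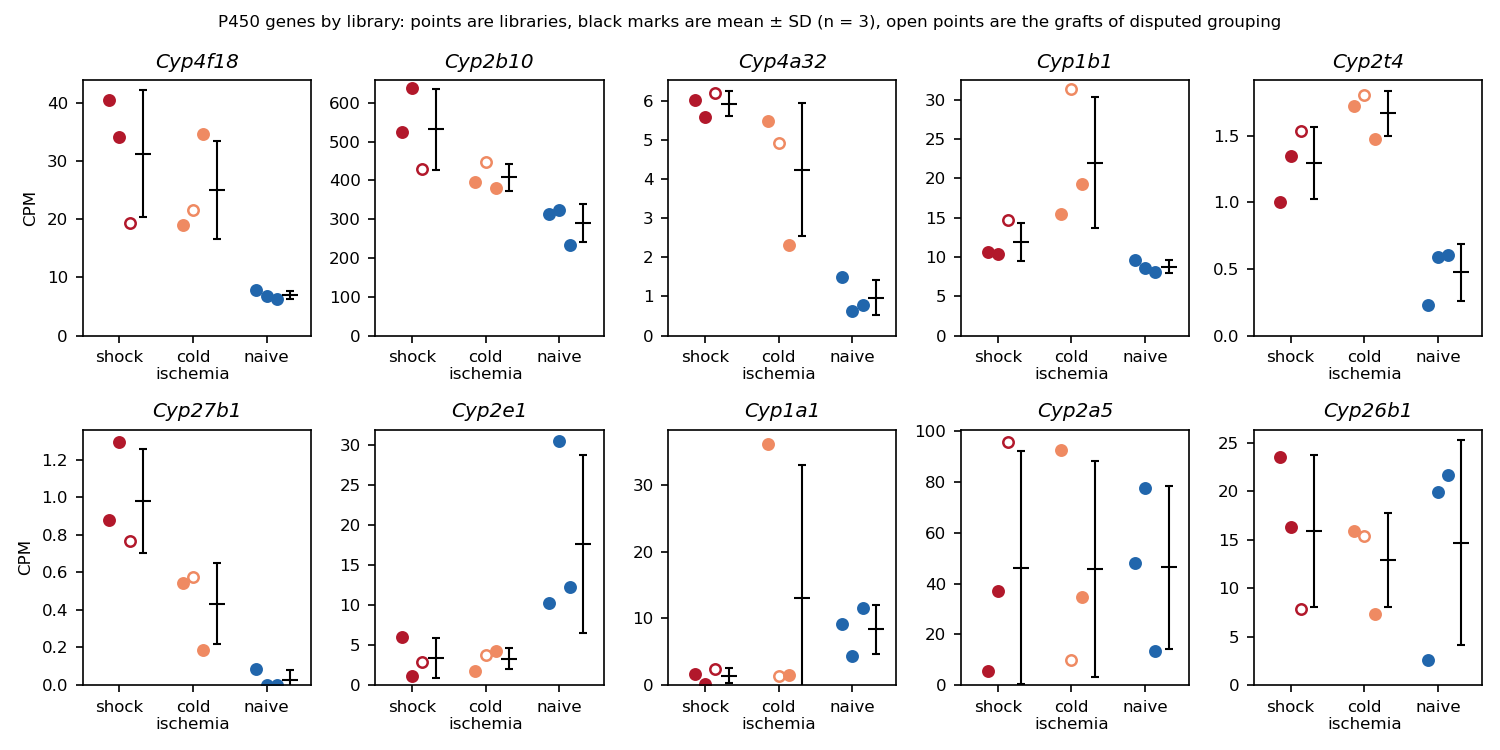
CPM of 10 P450 genes in each library, with shock grafts, cold-ischemia grafts and naive lungs along each axis, points for libraries, open points for the grafts of disputed grouping, and black marks for the mean ± SD of 3 libraries (cut off at 0). The grafts lie above the naive lungs for Cyp4f18, Cyp2b10, Cyp4a32, Cyp1b1, Cyp2t4 and Cyp27b1 and below them for Cyp2e1, whereas Cyp1a1, Cyp2a5 and Cyp26b1 overlap.

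Of the 16 family 4 genes, which hydroxylate fatty acids and eicosanoids, 9 were tested, of which 3 rose and 0 fell by the edgeR test (3 had an unadjusted p under 0.05, and DESeq2 also called 3 higher and 0 lower). Over all 15834 genes tested, edgeR called 22.1% higher and 19.7% lower, and 7938 had an unadjusted p under 0.05. Cyp4f18 inactivates the neutrophil attractant leukotriene B4 in mouse neutrophils. It had 40.5, 34.1 and 19.3 CPM in shock grafts, 18.96, 21.6 and 34.6 CPM in cold-ischemia grafts, and 7.75, 6.83 and 6.27 CPM in naive lungs. All grafts were above all naive lungs by a wide margin, and the gene rose by 2.01 ± 0.28 (adjusted p = 0.00024).

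Neutrophil markers moved with Cyp4f18. All 11 tested neutrophil markers rose, beside 22.1% higher of all genes tested. Their summed level was 2677, 3152 and 1794 CPM in shock grafts, 1125, 1318 and 2119 CPM in cold-ischemia grafts, and 86.2, 60.8 and 79.0 CPM in naive lungs. The 3 grafts with the most Cyp4f18, shock replicates 1 and 2 and cold-ischemia replicate 3, were also the 3 with the highest neutrophil sum. The part of neutrophils in the Cyp4f18 result was not tested. The exons of Cyp4f18 overlap those of Zfp961 on the opposite strand over 9.76% of their length, and the kit is not stated to keep strand.

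Cyp4a32 had 6.03, 5.58 and 6.19 CPM in shock grafts, 5.49, 4.92 and 2.31 CPM in cold-ischemia grafts, and 1.49, 0.633 and 0.784 CPM in naive lungs. It rose by 2.35 ± 0.36 (adjusted p = 0.00051), with cold-ischemia replicate 3 low among the grafts and still above the naive lungs. The mouse Cyp4a genes are known targets of the fatty acid receptor Ppara in liver. Of the stretches of 100 bases of the Cyp4a32 transcript, 20.1% also occur in Cyp4a10 or Cyp4a31, and reads there cannot be assigned to 1 gene. Both were too low to test, with 1 and 2 reads over all 9 libraries against 781 for Cyp4a32. Of their own stretches, 12.7% and 8.22% were shared.

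Cyp4f39, known from mouse for hydroxylating very long fatty acids of the skin barrier, had 6.28, 5.48 and 6.46 CPM in shock grafts, 7.16, 6.03 and 6.23 CPM in cold-ischemia grafts, and 3.23, 2.49 and 5.31 CPM in naive lungs. Naive replicate 3 came close to the lowest graft. The change of 0.76 ± 0.24 (adjusted p = 0.028) was no longer called without cold-ischemia replicate 1 (0.72, adjusted p = 0.054), without naive replicate 1 (0.66, adjusted p = 0.114), without naive replicate 2 (0.55, adjusted p = 0.127), without both grafts of disputed grouping (0.76, adjusted p = 0.054) or with upper-quartile scaling (0.56, adjusted p = 0.068). The adjusted p ranged between 0.0045 and 0.127 in 17 alternatives.

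Cyp4b1, the most abundant P450 gene, was not called. It had 666, 618 and 551 CPM in shock grafts, 514, 695 and 544 CPM in cold-ischemia grafts, and 603, 500.4 and 414 CPM in naive lungs. The groups overlapped and the log2 fold change was 0.24 ± 0.16 (adjusted p = 0.25). Cyp4v3, the mouse counterpart of the human fatty acid hydroxylase whose loss causes a crystalline retinal dystrophy, had 89.8, 80.0 and 50.01 CPM in shock grafts, 58.3, 84.7 and 63.9 CPM in cold-ischemia grafts, and 55.4, 61.3 and 45.4 CPM in naive lungs. These also overlapped (0.40 ± 0.20, adjusted p = 0.13). The other family 4 genes, Cyp4f13, Cyp4f15, Cyp4f16 and Cyp4f17, had log2 fold changes between -0.26 and 0.19.

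The P450 genes of the aryl hydrocarbon receptor did not share one pattern. Cyp1b1, which hydroxylates estrogens and polycyclic hydrocarbons and is expressed outside the liver, had 10.7, 10.4 and 14.7 CPM in shock grafts, 15.4, 31.3 and 19.2 CPM in cold-ischemia grafts, and 9.64, 8.59 and 8.07 CPM in naive lungs. All grafts were above all naive lungs in CPM, by a small margin in shock replicates 1 and 2, but not in FPKM. The gene rose by 0.89 ± 0.23 (adjusted p = 0.011).

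Cyp1a1, the most inducible target of the receptor, had 1.67, 0.149 and 2.39 CPM in shock grafts, 36.2, 1.39 and 1.48 CPM in cold-ischemia grafts, and 9.18, 4.30 and 11.6 CPM in naive lungs. Thus 5 grafts were below every naive lung and cold-ischemia replicate 1 was above all of them. With all libraries the log2 fold change was -0.96 ± 0.93 (adjusted p = 0.43), and without cold-ischemia replicate 1 it was -2.55 (adjusted p = 0.0058). Over 17 alternatives the adjusted p ranged between 0.0058 and 0.895, and the call for all grafts together rests on that 1 library. Shock grafts alone had a log2 fold change of -2.56 ± 1.19 against naive lungs (adjusted p = 0.11). That change was called with a replicate block, with only the groups compared and without cold-ischemia replicate 1. The authors' deposited comparison, with their own grouping, also called it (-2.57, adjusted p = 7.7e-06).

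The other genes of the receptor pathway came from a fixed list of 9, of which 8 were tested, 5 rose and 1 fell, beside 22.1% higher and 19.7% lower of all genes tested, and the median log2 fold change was 0.72. The receptor itself, Ahr, had 69.3, 53.2 and 67.3 CPM in shock grafts, 77.9, 57.0 and 67.5 CPM in cold-ischemia grafts, and 152, 132 and 118 CPM in naive lungs, and fell by 1.04 ± 0.14 on the log2 scale (adjusted p = 0.00019). Tiparp, an induced enzyme that restrains the receptor, had 223, 183 and 305 CPM in shock grafts, 315, 212 and 202 CPM in cold-ischemia grafts, and 34.0, 35.9 and 28.7 CPM in naive lungs. It rose by 2.87 ± 0.22 (adjusted p = 6.3e-06), and no graft came near a naive lung.

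The quinone reductase Nqo1 (1.15 ± 0.30), the aldehyde dehydrogenase Aldh3a1 (0.81 ± 0.24) and the receptor's chaperones Ptges3 (1.09 ± 0.17) and Hsp90ab1 (0.64 ± 0.22) also rose. Cold-ischemia replicate 1, the library high in Cyp1a1, had the most Tiparp, Nqo1 and Ahr of the 6 grafts, with 315, 23.1 and 77.9 CPM. It did not have the most Cyp1b1, with 15.4 CPM against 31.3 and 19.2 CPM in cold-ischemia replicates 2 and 3. The part of the receptor in the Cyp1a1 value of that library was not tested. Arnt, the partner of the receptor, was not called (0.20 ± 0.11), and the receptor's repressor Ahrr had 35 reads in all and was not tested.

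Among vitamin D enzymes, Cyp27b1 makes the active hormone and is known for its induction in activated macrophages. It had 0.879, 1.30 and 0.768 CPM in shock grafts, 0.544, 0.574 and 0.185 CPM in cold-ischemia grafts, and 0.0858, 0 and 0 CPM in naive lungs. These are 94 reads in 6 grafts and 3 reads in 3 naive lungs, a ratio of 22.6 in CPM with a 95% counting interval of 7.48 to 111. A count of 0 allows up to 0.136 CPM in naive replicate 2 and 0.0759 CPM in naive replicate 3. The edgeR test called it (log2 fold change 4.20 ± 0.81, adjusted p = 0.0019), with a log2 fold change of 3.56 to 7.01 over 17 alternatives. The highest, 7.01, was without naive replicate 1, the library that holds all 3 naive reads, and a change fitted against 0 reads gives no measure of size. Of 12 tested monocyte and macrophage markers, 4 rose and 1 fell, which is near the 41.8% called over all genes tested. Their summed levels were 6316 to 8934 CPM in grafts and 6689 to 7708 CPM in naive lungs. The part of these cells in the Cyp27b1 result was not tested.

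Cyp2r1, which makes the circulating form of vitamin D, had 1.30, 1.196 and 0.813 CPM in shock grafts, 1.18, 0.656 and 0.970 CPM in cold-ischemia grafts, and 1.40, 1.90 and 1.24 CPM in naive lungs, and was not called (-0.57 ± 0.31, adjusted p = 0.16). Cyp24a1, the enzyme that degrades the hormone and is its classical target, had 4 reads in all and was not tested. The vitamin D receptor Vdr rose by 0.71 ± 0.18, with 12.8 to 15.0 CPM in grafts and 6.17 to 9.95 CPM in naive lungs.

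Cyp11a1, the mitochondrial enzyme that starts steroid hormone synthesis, had 0.711, 0.399 and 0.632 CPM in shock grafts, 0.907, 0.410 and 0.693 CPM in cold-ischemia grafts, and 0.286, 0.226 and 0.0506 CPM in naive lungs. The grafts lay above the naive lungs and the gene rose by 1.75 ± 0.55 (adjusted p = 0.026), on 101 reads in all. It was no longer called without cold-ischemia replicate 1 (adjusted p = 0.056), naive replicate 2 (0.065) or naive replicate 3 (0.093), over a range of 0.0136 to 0.0934 in 17 alternatives. Of the adrenal and gonad markers, the defining factor Nr5a1 had 4 reads in all, and the cholesterol carrier Star fell.

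The bile acid and oxysterol enzymes gave no call by edgeR in 4 tested genes of 5 (1 had an unadjusted p under 0.05). Of all 15834 genes tested, 41.8% were called and 7938 had an unadjusted p under 0.05. Cyp39a1, which hydroxylates oxysterols, had 27.5, 27.2 and 24.4 CPM in shock grafts, 26.5, 27.5 and 26.8 CPM in cold-ischemia grafts, and 31.3, 32.7 and 26.4 CPM in naive lungs, with overlapping groups (-0.18 ± 0.12, adjusted p = 0.25). Cyp7b1, another oxysterol hydroxylase, had 3.61 to 5.83 CPM in grafts and 2.69 to 3.57 CPM in naive lungs (0.56 ± 0.23, adjusted p = 0.072), and DESeq2 called it higher. Cyp27a1 (-0.46 ± 0.33) and Cyp8b1 (-0.51 ± 0.30) overlapped between grafts and naive lungs.

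The arachidonic acid epoxygenases Cyp2j6, Cyp2j9 and Cyp2c44 had negative log2 fold changes, none of them called by edgeR (1 of 3 with an unadjusted p under 0.05, and 0 called by DESeq2). By edgeR, 41.8% of all 15834 genes tested were called and 7938 had an unadjusted p under 0.05. Cyp2j6 had 13.6, 9.52 and 15.2 CPM in shock grafts, 17.3, 14.8 and 16.2 CPM in cold-ischemia grafts, and 16.6, 18.4 and 17.4 CPM in naive lungs (-0.28 ± 0.16, adjusted p = 0.17). Cyp2c44 was scarce, with 0 to 0.497 CPM in grafts and 0.506 to 1.22 CPM in naive lungs. It was called lower by edgeR in 4 of 17 alternatives, namely the tables' grouping, upper-quartile scaling, without both grafts of disputed grouping and without shock replicate 3. Cyp2j6 was called lower with upper-quartile scaling.

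Cyp26b1, which clears retinoic acid, had 23.5, 16.3 and 7.82 CPM in shock grafts, 15.9, 15.4 and 7.29 CPM in cold-ischemia grafts, and 2.58, 19.9 and 21.6 CPM in naive lungs. Naive replicate 1 was the lowest of all libraries and the other naive lungs among the highest, and the log2 fold change of -0.04 ± 0.55 (adjusted p = 0.97) turned sign without several single libraries. Of the broadly expressed enzymes, Cyp2s1 of epithelia had 67.7, 96.0 and 99.3 CPM in shock grafts, 98.7, 97.1 and 68.1 CPM in cold-ischemia grafts, and 99.4, 89.8 and 83.0 CPM in naive lungs. It overlapped between groups (-0.05 ± 0.16, adjusted p = 0.84, with a value slightly above 0 when any 1 of 3 libraries was left out), and the orphan Cyp20a1 was not called (-0.18 ± 0.12).

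Cyp2u1, a fatty acid hydroxylase, fell by 1.75 ± 0.41 on the log2 scale (adjusted p = 0.0060). It had 0.167, 0.149 and 0.136 CPM in shock grafts, 0.272, 0.205 and 0.600 CPM in cold-ischemia grafts, and 0.629, 0.950 and 0.809 CPM in naive lungs. Cold-ischemia replicate 3 came close to the lowest naive lung. The antisense gene 4930534D22Rik overlaps 10.5% of its exons, and without strand their reads cannot be told apart. Cyp2u1, Cyp27b1 and Cyp11a1 averaged under 1 CPM. Cyp2u1 and Cyp27b1 fell outside the rule for per-library values and are given because the test called them.

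**Figure D4:**
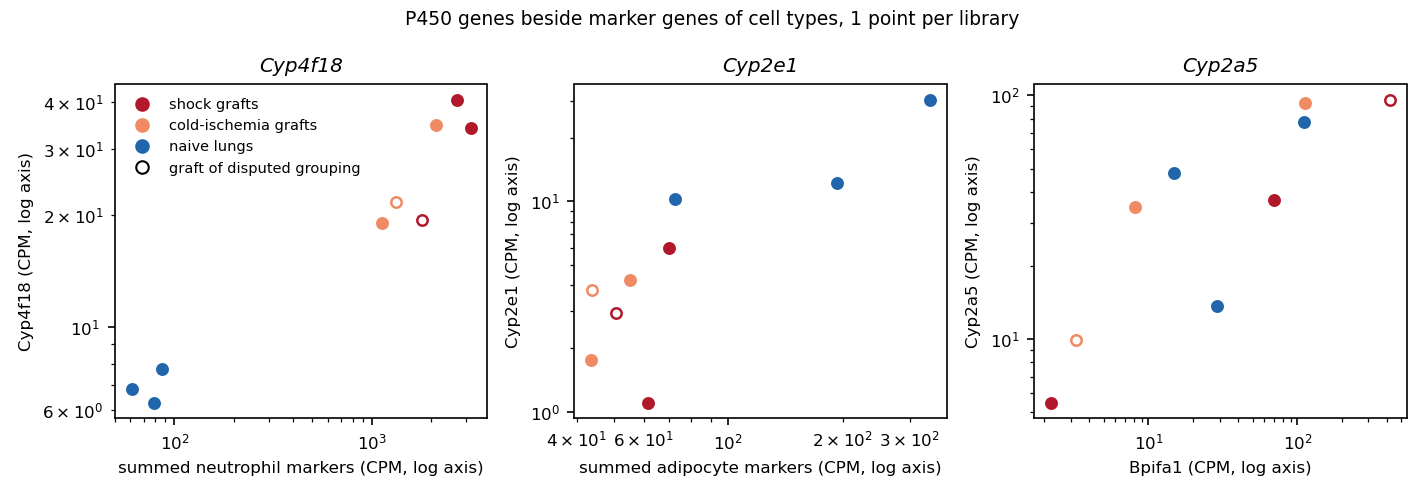
P450 genes against marker genes in CPM on log axes, 1 point per library and open points for the grafts of disputed grouping. Cyp4f18 and summed neutrophil markers are both higher in the 6 grafts, Cyp2e1 and summed adipocyte markers are both higher in the 3 naive lungs, and Cyp2a5 and Bpifa1 are both lowest in shock replicate 1 and cold-ischemia replicate 2.

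Among neighbouring P450 genes, those called lay beside tested genes that were not called. For scale, 41.8% of all genes tested were called, 22.1% higher and 19.7% lower. A gene that was not called is not shown to be unchanged, and others in these stretches were too low to test. On chromosome 7 between 25802475 and 27158668 (mm10), 11 of the 60 genes lie together and 4 were tested. Of these Cyp2b10 and Cyp2t4 rose, and their neighbours Cyp2s1 and Cyp2a5 were not called. On chromosome 17 between 32468462 and 32947402, 1 of 5 tested Cyp4f genes rose, Cyp4f39. On chromosome 4 between 115106323 and 115647709, Cyp4a32 rose while Cyp4b1, the next gene, was not called. On chromosome 9, Cyp1a1 (57697613 to 57703822) was not called and Cyp11a1 (58006411 to 58027023) rose.

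The partners that feed electrons and heme to P450 enzymes included genes that rose and genes that fell. Of 12 genes on that fixed list, all tested, 2 rose and 3 fell, which is near the 41.8% called over all genes tested, and the median log2 fold change was -0.09. Por, which serves the enzymes of the endoplasmic reticulum, had 559, 819 and 756 CPM in shock grafts, 731, 542 and 646 CPM in cold-ischemia grafts, and 329.5, 409 and 295 CPM in naive lungs, and rose by 0.97 ± 0.18 (adjusted p = 0.0014). Alas1, the rate-limiting enzyme of heme synthesis, had 514, 581 and 425 CPM in shock grafts, 446, 387 and 419 CPM in cold-ischemia grafts, and 302, 311 and 258 CPM in naive lungs, and rose by 0.66 ± 0.14 (adjusted p = 0.0031). For both genes all grafts were above all naive lungs.

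Fdxr, which serves the mitochondrial enzymes such as Cyp11a1 and Cyp27b1, had 2.01, 1.79 and 1.17 CPM in shock grafts, 1.72, 1.64 and 1.85 CPM in cold-ischemia grafts, and 5.32, 4.21 and 4.50 CPM in naive lungs. It fell by 1.46 ± 0.22 on the log2 scale (adjusted p = 0.00043), and every graft was below every naive lung. The cytochrome b5 reductase gene Cyb5r1 (-0.55 ± 0.16) fell as well, with 10.7 to 24.8 CPM in grafts and 22.7 to 25.9 CPM in naive lungs, which overlap.

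**Figure D5:**
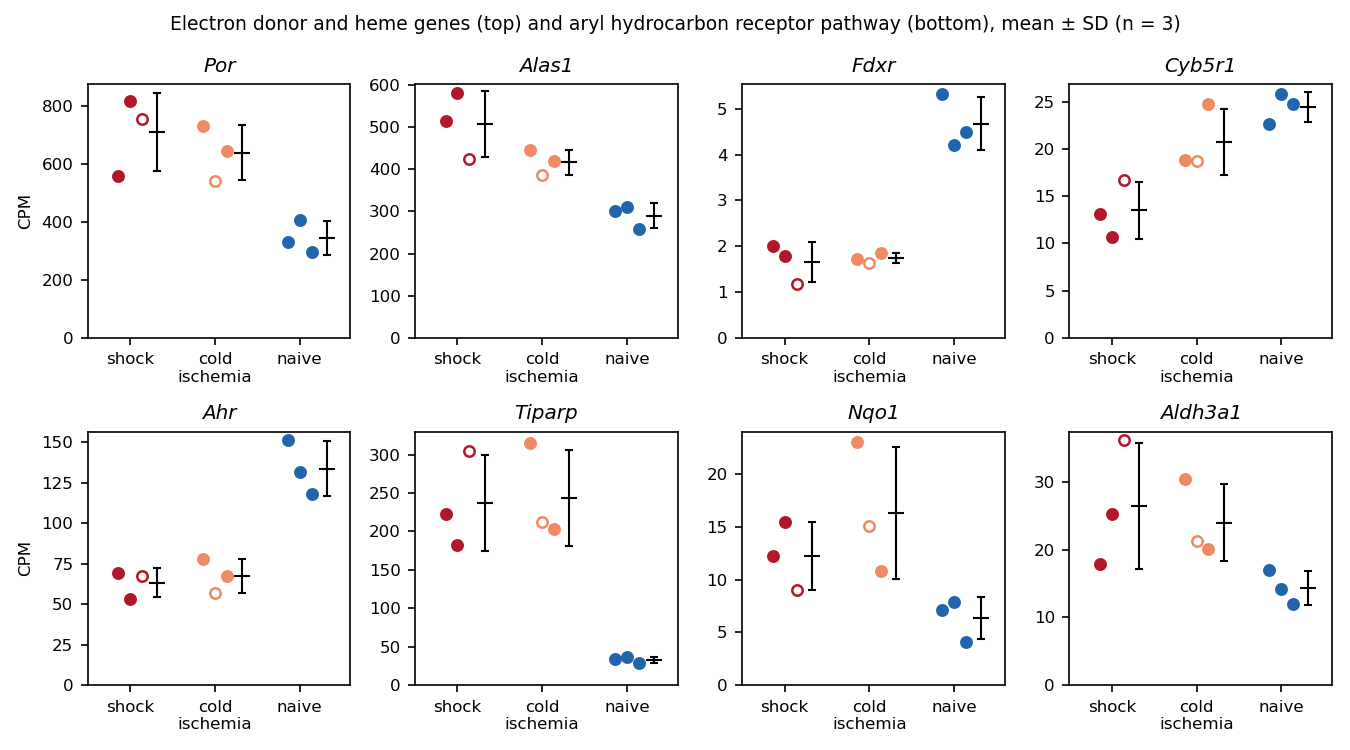
CPM of 4 electron donor and heme genes (top) and 4 genes of the aryl hydrocarbon receptor pathway (bottom) by group, with points for libraries, open points for grafts of disputed grouping and black marks for the mean ± SD of 3 libraries. Por, Alas1, Tiparp, Nqo1 and Aldh3a1 are higher and Fdxr and Ahr lower in the grafts than in the naive lungs, and Cyb5r1 overlaps.

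Of 15 tested nuclear receptors that control P450 genes, 3 rose and 3 fell, also near the 41.8% called over all genes tested, with a median log2 fold change of -0.20. The fatty acid receptor Ppard (1.46 ± 0.12), Vdr and the oxysterol receptor Nr1h2 (0.39 ± 0.12) rose. Their common partner Rxra (-0.68 ± 0.10), the retinoic acid receptor Rarg (-0.87 ± 0.12) and the glucocorticoid receptor Nr3c1 (-0.42 ± 0.12) fell. Of 24 tested genes for other enzymes of foreign compounds, 4 rose and 3 fell, against 41.8% called over all genes tested, with a median log2 fold change of -0.26. The glutathione transferase Gsta1 rose by 2.23 ± 0.77 and the flavin monooxygenase Fmo5 fell by 0.90 ± 0.17 on the log2 scale, while Fmo2, the abundant flavin monooxygenase of lung, was not called (-0.27 ± 0.19).

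Each graft group was also set against the same 3 naive libraries, so the next counts share their controls. In shock grafts 5 P450 genes rose (Cyp27b1, Cyp2b10, Cyp2t4, Cyp4a32 and Cyp4f18) and 2 fell (Cyp2e1 and Cyp2u1) of 31 with the titles' grouping, a share of 22.6% against 39.9% of all genes tested (22% higher and 17.9% lower). In cold-ischemia grafts 7 rose (Cyp11a1, Cyp1b1, Cyp27b1, Cyp2t4, Cyp4a32, Cyp4f18 and Cyp4f39) and 1 fell (Cyp2e1), a share of 25.8% against 30.6% of all genes tested (17.5% higher and 13.1% lower). With the grouping of the deposited tables, 8 rose and 5 fell in shock grafts (3773 and 3534 of all 15834 genes), and 6 rose and 1 fell in cold-ischemia grafts (3054 and 2459). With the titles' grouping Cyp1b1 had a log2 fold change of 0.45 ± 0.26 in shock grafts (adjusted p = 0.19) and of 1.33 ± 0.26 in cold-ischemia grafts (adjusted p = 0.0033). With the tables' grouping edgeR called it in shock grafts and not in cold-ischemia grafts, so its edgeR call by graft type depends on the 2 disputed libraries. The authors' deposited comparisons, which use the tables' grouping, called Cyp1b1 higher in both graft types. Their log2 fold change was 0.98 in shock grafts (adjusted p = 0.030) and 0.90 in cold-ischemia grafts (adjusted p = 4.1e-06). Cyp2b10 had a log2 fold change of 0.87 ± 0.19 in shock grafts (adjusted p = 0.0040) and of 0.49 ± 0.18 in cold-ischemia grafts (adjusted p = 0.069). In cold-ischemia grafts it was called higher with DESeq2, a replicate block or only the groups compared, and without shock replicate 2 or 3. The authors' deposited comparison of cold-ischemia grafts with naive lungs also called Cyp2b10 (0.48, adjusted p = 0.0064), with the tables' grouping.

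The comparison of the 2 graft types, which asks what donor shock adds to cold ischemia, gave no P450 gene at an adjusted p under 0.05 by edgeR, and the share was 0% of all genes tested. DESeq2 also called 0 of the 31, and 8 of all genes tested. At an unadjusted edgeR p under 0.05 there were 3, Cyp1a1, Cyp1b1 and Cyp4f15, beside 1152 of all 15834 genes tested. How many of all genes do not overlap between the graft types was not counted. Cyp4f15, a fatty acid hydroxylase, had 5.11, 7.52 and 4.25 CPM in shock grafts and 3.08, 2.17 and 2.72 CPM in cold-ischemia grafts, which do not overlap (1.08 ± 0.30, adjusted p = 0.67). Cyp1b1 was lower in all shock grafts than in all cold-ischemia grafts (-0.88 ± 0.26, adjusted p = 0.67), and Cyp1a1 had a log2 fold change of -3.19 ± 1.21 (adjusted p = 0.67) that rests on cold-ischemia replicate 1.

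With the grouping of the deposited tables, again 0 of the 31 were called, against 0.783% of all genes tested. Beside 3075 of all 15834 genes tested, 6 P450 genes had an unadjusted p under 0.05. These were Cyp4v3, Cyp1a1, Cyp27a1, Cyp2a5, Cyp3a13 and Cyp2b10. Cyp4v3 then had 80.0 to 89.8 CPM in shock grafts and 50.01 to 63.9 CPM in cold-ischemia grafts (0.56 ± 0.14, adjusted p = 0.084). Cyp2a5 had 5.44 to 37.2 CPM in shock grafts and 34.8 to 96.0 CPM in cold-ischemia grafts (-2.10 ± 0.75, adjusted p = 0.17). Under that grouping the log2 fold change of Cyp1b1 was 0.09 ± 0.37, the opposite sign to that under the titles. In the authors' deposited table of shock over cold ischemia, 28 of 53 P450 genes were given an adjusted p. Of these, 2 were under 0.05, Cyp4v3 with a log2 fold change of 0.53 (adjusted p = 0.035) and Cyp3a13 with 0.77 (adjusted p = 0.045). The share of all genes called there was not counted.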

How the data were processed

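Whole left lungs of 9 mice were measured by RNA-seq. Libraries were made with NEBNext Ultra II from 1 µg of total RNA and read as pairs of 150 bp, per the labels' protocols, which do not state strandedness. The submitters' processing notes name STAR, HTSeq, DESeq2, edgeR, STAR-Fusion and mm10, without versions or roles. The authors deposited 3 tables of 6 libraries each. Counts are whole reads per gene, per the file headers. The deposited signal is the count divided by a size factor, and was used only to check the counts. FPKM values are the authors', scaled by gene length and library total but not by TMM, and were used to compare levels between genes. The log2 fold changes and p-values of the deposited tables are the authors' own.

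All 9 libraries were joined (the repeated columns agree in every count) and fitted with edgeR 4.0.16 in R 4.3.3: filterByExpr, TMM scaling, 1 mean per title group, glmQLFit and glmQLFTest, with Benjamini-Hochberg adjustment over 15834 genes. Grafts are the mean of both graft groups. The fit was tested on simulated data. DESeq2 1.42.0 and limma 3.58.1 (needed by edgeR) were also used. No pair of libraries agreed within sampling noise. A count of 3 reads, the limit that a count of 0 allows, is 0.0759 to 0.1495 CPM; intervals and limits cover counting error only. Transcripts came from GENCODE M21 and promoters from RefSeq. Per-library values are given for the 5 genes of highest FPKM, for called genes of at least 1 CPM (up to 8 in each direction) and for the gene of highest FPKM in each functional group. One gene counted in the electron donor and heme list is not reported here. Genes, lists and tests were chosen with earlier results of these data known. Alternatives were other scalings, DESeq2, no filter, a replicate block, the other grouping, only the groups compared, and leaving out libraries.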

Additional observations from a re-analysis of the deposited data

Results flagged for a closer look

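Among the 6 grafts, 4 of the 31 tested P450 genes had 1 library far from the others relative to the whole range. Chance alone gives about 1 in 20. Cyp1a1 was at 36.2 CPM in cold-ischemia replicate 1, against 0.149 to 2.39 CPM in the other grafts and 4.30 to 11.6 CPM in naive lungs. Cyp4a32 was at 2.31 CPM in cold-ischemia replicate 3, against 4.92 to 6.19 CPM in the other grafts and 0.633 to 1.49 CPM in naive lungs. Cyp2u1 was at 0.600 CPM in the same library, against 0.136 to 0.272 CPM in the other grafts and 0.629 to 0.950 CPM in naive lungs. Cyp39a1 was at 24.4 CPM in shock replicate 3, one of the grafts of disputed grouping, against 26.5 to 27.5 CPM in the other grafts and 26.4 to 32.7 CPM in naive lungs.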

How the results depend on the processing

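For grafts against naive lungs, the count of P450 genes that rose was 7 to 10 under other scalings, DESeq2, no filter, the tables' grouping or without both grafts of disputed grouping, and 6 to 10 when 1 library was left out. The count that fell was 7 with upper-quartile scaling and 2 to 3 otherwise. Cyp2b10, Cyp4a32, Cyp4f18, Cyp2t4, Cyp1b1, Cyp27b1, Cyp2e1 and Cyp2u1 were called in all 17 alternatives. With upper-quartile scaling Cyp2j6 (-0.49), Cyp39a1 (-0.38), Cyp20a1, Cyp2c44 and Cyp4f16 were also called lower, beside 5029 of all 15834 genes. Cyp4v3 was called higher with the tables' grouping (0.37), without both disputed grafts (0.42) and without shock replicate 3 (0.50). Cyp2c44 was called lower in the same 3 settings, and Cyp7b1 higher with the tables' grouping, without shock replicate 3 and with DESeq2. The log2 fold change of Cyp27b1 was 3.56 to 7.01. For shock against naive lungs, the count that rose was 8 with the tables' grouping, and the count that fell was 6 with upper-quartile scaling, 5 with the tables' grouping, 4 without both disputed grafts and 2 to 4 when 1 library was left out (4 without shock replicate 3). For cold ischemia against naive lungs, the count that fell was 0 to 2 when 1 library was left out (0 without naive replicate 2, where Cyp2e1 was lost, and 2 without cold-ischemia replicate 1 or 3). Uncalled changes that turned sign were Cyp2a5 (0.00248 with DESeq2 size factors, -0.57 to 0.57 without single libraries), Cyp26b1 (0.054 without both disputed grafts, -0.55 to 0.36 without single libraries), Cyp2s1 (-0.11 to 0.032 without single libraries) and Cyp1b1 between the graft types (0.089 with the tables' grouping). The cause was not tested. Same-numbered libraries did not deviate together (correlation -0.394 to 0.096, and -0.359 to 0.32 for libraries of different number). This shows no pairing by number, but deviations from means of 3 libraries cannot exclude it. With a replicate block the counts were 8 higher and 2 lower for grafts, 6 and 3 for shock, 7 and 1 for cold ischemia, and 0 and 0 between the graft types. Genes under about 1 CPM rest on few reads, such as 97 for Cyp27b1 and 101 for Cyp11a1.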
